A study of Mus musculus with 6 samples.

Results

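The transcripts followed here encode the cyclins, the cyclin-dependent kinases (CDKs), the proteins that inhibit or activate these kinases, and the E2F and RB factors that tie them to transcription. The list was compiled from general knowledge of the cell cycle, by function but with earlier results of these data known, and holds 43 genes. Of these, 42 had a probe set with 1 gene symbol and were analysed, among 18194 genes in all, and Ccnb1 (cyclin B1) was not analysed here. Each gene is represented by 1 probe set, the brightest of those that carry its symbol alone, judged by the mean of all 6 arrays.

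The cells were lung endothelial cells (ECs) from female NSG mice, an immunodeficient strain without mature lymphocytes, 6 to 8 weeks old when the experiment began. All mice had received MDA231-LM2 cells, a human breast cancer line selected from MDA-MB-231 for spread to the lung, by intravenous injection 20 days before. In the shControl group (3 samples) the cancer cells carried a control short hairpin RNA, and in the shTNC group (3 samples) a hairpin RNA against TNC, the gene of the matrix protein tenascin C. The hairpin acts on human transcripts in cells that the sort removes, so the mouse values give no check of the knockdown. ECs were taken from whole lung by sorting for CD31 and against CD45, CD11b, EpCAM, CD140a and CD140b, and the green fluorescent protein of the cancer cells, so vessels near to and far from metastases were mixed, and mice without metastases were not part of the comparison. Each sample was measured on 1 Affymetrix array, and values are log2 levels per probe set, which are compared between samples and not between genes. The comparison asks how ECs differ between lungs whose cancer cells were or were not depleted of TNC. The paper reports reduced lung colonization by cancer cells with TNC knocked down. The groups may thus also differ in metastatic load, which the array values do not give and whose part in the results was not tested.

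Cells divide when D-type cyclins with CDK4 and CDK6, and then E-type cyclins with CDK2, phosphorylate the RB proteins and free the E2F factors, which switch on the genes of S phase. Cyclin A with CDK2 then carries the cell through S phase, and the B-type cyclins with CDK1 through mitosis. The mitotic genes are switched on late in the cycle by B-MYB with the MuvB complex and by FOXM1. In the resting vessel wall most ECs are out of the cycle, and the transcripts of late cyclins are made mainly in cells that divide. In bulk samples such as these, fewer dividing cells and less transcript per dividing cell cannot be told apart.

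Genes of S phase and mitosis had lower values in shTNC ECs. At an unadjusted p under 0.05 in limma, 4 of 4 E- and A-type cyclin and Cdk2 genes were lower. So were 3 of the 4 genes in the group of B-type cyclins, cyclin F, Cdk1 and Cdk7. The count was 1 of 5 D-type cyclin and kinase genes and, on the probe sets used, 0 of 3 RB genes. In other roles it was 2 of 9 E2F and DP factors, 2 of 5 CDC25 and WEE1-type genes, 1 of 5 CDK inhibitors, 1 of 3 mitotic transcription factors and MuvB genes, and 2 of 3 SKP2 and CKS genes. Cdk1, the kinase of mitosis, was 1.79-fold higher in shControl than in shTNC, Ccna2, the gene of cyclin A2, 1.67-fold higher, and Mki67, the gene of the proliferation marker Ki-67, 1.56-fold higher (n = 3 arrays per group). Of the 42 genes, 17 (40.5%) were lower in shTNC at an unadjusted p under 0.05 in limma, against 7.12% of all 18194 genes. None of the 42 was higher at that level, against 4.54% of all genes. In 18 genes (42.9%) every shTNC array lay under every shControl array, against 12.4% of all genes. In 1 gene, Ccnd3, every shTNC array lay above, against 7.36% of all genes. The median difference of the 42 genes, shTNC minus shControl, was -0.155 on the log2 scale, and that of all genes was -0.0296. All 42 genes lay above the background level of 7.475 (log2), and among the 13444 genes above that level 7.42% were lower at an unadjusted p under 0.05.

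No single gene passed the adjusted threshold. After Benjamini-Hochberg adjustment in limma over all 45101 probe sets, 0 (0%) had an adjusted p under 0.05, while 5846 had an unadjusted p under 0.05. The smallest adjusted p among the 42 genes was 0.184, and those of the 17 genes lower at an unadjusted p under 0.05 lay between 0.184 and 0.373. The differences of these 17 genes thus did not hold after adjustment over the whole array, and in some of them, such as Ccnb2, Cks2, Pkmyt1 and Cdkn2c, the shControl arrays alone spanned more than the difference between the group means.

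**Figure D1:**
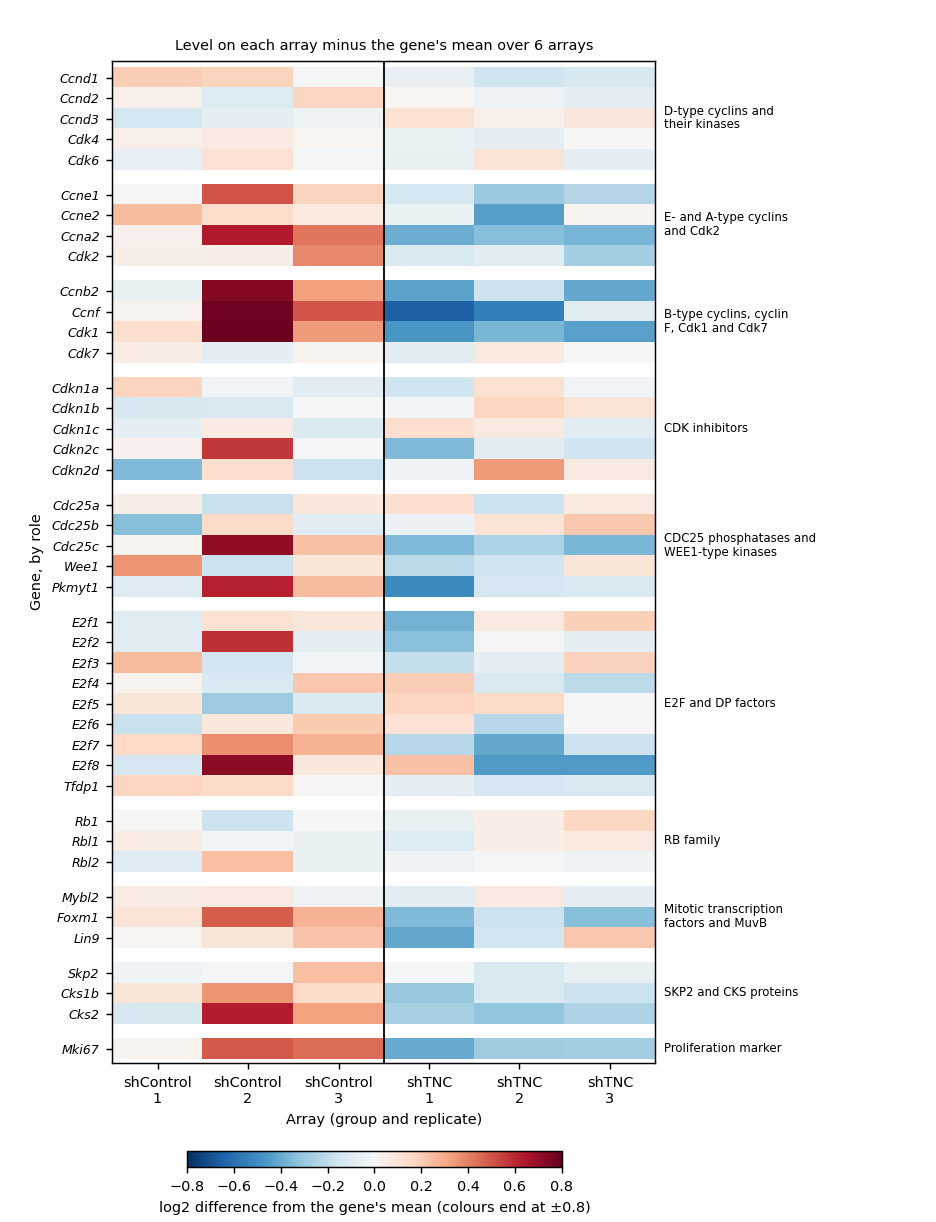
Level of each of 42 genes on each of 6 arrays minus the gene's own mean (log2, colour), with genes as rows grouped by role and the 3 shControl arrays left of the line. Cdk1, Ccna2, Ccnf and Mki67 are blue on all 3 shTNC arrays, the deepest red lies on shControl replicate 2, and the RB family and Cdk4, Cdk6 and Cdk7 stay pale.

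**Figure D2:**
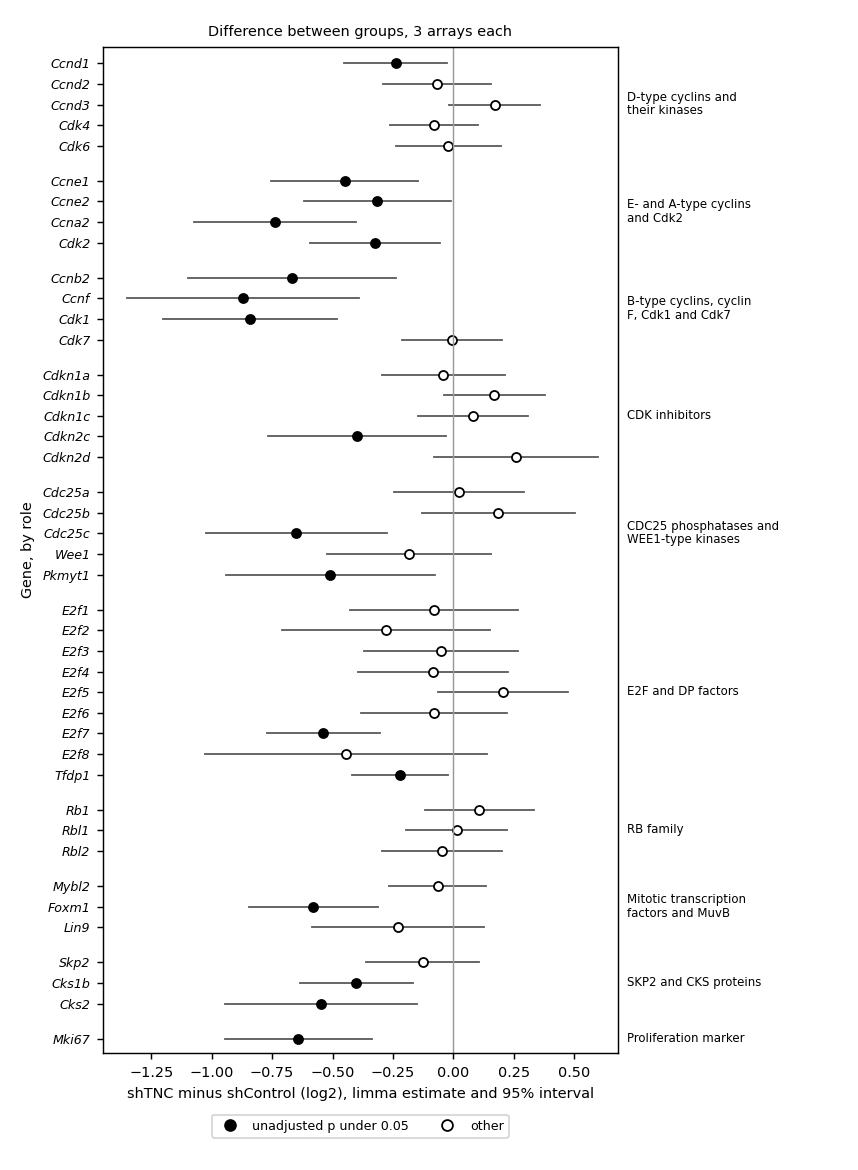
Difference of shTNC minus shControl (log2, x axis) for each of 42 genes, grouped by role, with limma's 95% interval from 3 arrays in each group. Points are filled where the unadjusted p was under 0.05, and all 17 filled points lie below 0.

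The arrays did not contribute equally. Of the 17 genes lower at an unadjusted p under 0.05, 13 had their highest value on shControl replicate 2, 3 on shControl replicate 1 and 1 on shControl replicate 3. Relative to each gene's mean over the 6 arrays, the median of these 17 genes was 0.04 on shControl replicate 1, 0.50 on replicate 2 and 0.28 on replicate 3, against -0.35, -0.25 and -0.24 on the shTNC arrays. The 3 shControl samples thus covered a wide range, and the shTNC samples lay close together. The median standard deviation of these genes was 0.257 within shControl and 0.0923 within shTNC, while for genes above background it was 0.131 and 0.0864. The groups of this description follow from how the 17 genes were picked and are no test. Over all probe sets, shControl replicate 2 also stood apart on the first principal component. It scored -43.6 there, shControl replicates 1 and 3 scored -11.1 and 0.251, and the shTNC arrays scored 16.1 to 21.1. Without it, 13 of the 42 genes were lower at an unadjusted p under 0.05, 12 of them among the 17, against 5.26% of all genes. Ccnd1 (-0.21), Ccne2 (-0.32), Cdkn2c (-0.21), Pkmyt1 (-0.33) and Tfdp1 (-0.20) no longer were, and Wee1 (-0.32) was. These 5 genes and Cdk2 were also the ones that missed that level when some other array was left out. Ccnd1 did so without shControl replicate 1 (-0.20), shTNC replicate 2 (-0.22) or shTNC replicate 3 (-0.23), and Ccne2 without shControl replicate 1 (-0.27), shControl replicate 3 (-0.35) or shTNC replicate 2 (-0.17). Cdk2 did so without shControl replicate 3 (-0.21) or shTNC replicate 3 (-0.27), and Cdkn2c without shTNC replicate 1 (-0.32) or 3 (-0.42). Pkmyt1 did so without shControl replicate 3 (-0.51) or shTNC replicate 1 (-0.38), and Tfdp1 without any single array other than shControl replicate 3. The other 11 of the 17 genes stayed at that level whichever array was left out.

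Other measures were read beside these genes. The sorted cells carried the endothelial markers at even levels, with Pecam1 (CD31) at -0.028 ± 0.081 (SE, n = 3 per group, log2) and Cdh5 at -0.043 ± 0.08, and 0 of 14 pan-endothelial markers at an unadjusted p under 0.05 in limma. Of 15 macrophage and monocyte markers 13 had lower means in shTNC, 4 of them at an unadjusted p under 0.05. Their summed level (linear scale) was 18610 to 19430 in shControl and 15260 to 18830 in shTNC, ranges that overlapped. The brightest markers in that sum, Mertk and Lyz2, had differences of -0.079 ± 0.087 and -0.12 ± 0.23. Mrc1, a mannose receptor of macrophages, was at -0.62 ± 0.14, and Adgre1, the F4/80 gene, was near background. Of 10 fibroblast markers 7 had higher means, with a summed level of 15190 to 22710 in shControl and 20190 to 28990 in shTNC. The sums over 9 lymphocyte markers ran from 1626 to 1859 and from 1583 to 1694, with Cd3e and Cd3g near background. At an unadjusted p under 0.05, 2 of the 10 fibroblast markers were higher and 1 of the 9 lymphocyte markers lower. The same count was 1 lower of 10 for neutrophils, 2 higher of 10 for pericytes and smooth muscle, 1 lower of 11 for epithelium and 1 higher of 7 for erythroid cells and megakaryocytes. The summed levels of these 4 lists, like the sums above, overlapped between the groups. Elane and Foxj1, the genes called for neutrophils and epithelium, lay near background. Other epithelial markers varied between arrays: Sftpc lay between 12.09 and 13.46. Scgb1a1 was at 6.84, 12.04 and 10.69 in shControl and at 11.06, 8.19 and 11.80 in shTNC. Over all 18194 genes 7.12% were lower and 4.54% higher at that level, and 10602 had a lower mean in shTNC. With so few markers called per list, nothing is read from these counts. The signal of the 3' minus the 5' control probe set of Actb was 0.277 to 0.291 in shControl, and 0.197 to 0.274 in shTNC. That of Gapdh overlapped, at 0.558 to 0.567 in shControl, and 0.499 to 0.581 in shTNC. The part of these measures in the results was not tested.

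Cyclin B and its kinase CDK1 form the engine of mitosis, and their transcripts build up late in the cycle. Cdk1 (1448314_at) had levels of 11.22, 11.88 and 11.43 in shControl and 10.63, 10.72 and 10.66 in shTNC. All 3 shTNC arrays lay together and under the lowest shControl array, with a difference of -0.84 ± 0.16 (SE, limma, log2) and an adjusted p of 0.184. Ccnb2, the gene of cyclin B2 (1450920_at), had levels of 9.89, 10.68 and 10.28 in shControl and 9.52, 9.78 and 9.54 in shTNC. Its shControl arrays were spread over more than the gap between the groups, and the groups were separate by a small margin, between shControl replicate 1 and shTNC replicate 2. The difference was -0.67 ± 0.19, with an adjusted p of 0.258. Ccnf, which encodes cyclin F, the substrate receptor of a ubiquitin ligase that works in G2 rather than a partner of a CDK (1422513_at), had levels of 8.80, 9.54 and 9.27 in shControl and 8.11, 8.21 and 8.67 in shTNC. It had the most negative difference of the 42 genes, -0.87 ± 0.21 with an adjusted p of 0.225, but shTNC replicate 3 came close to shControl replicate 1. Cdk7, the kinase that activates the other CDKs and is part of the transcription machinery (1451741_a_at), stood apart from these 3 genes. Its levels of 10.95, 10.81 and 10.91 in shControl and 10.80, 10.97 and 10.88 in shTNC overlapped, and its difference was -0.0051 ± 0.089, with a 95% interval of -0.21 to 0.20.

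**Figure D3:**
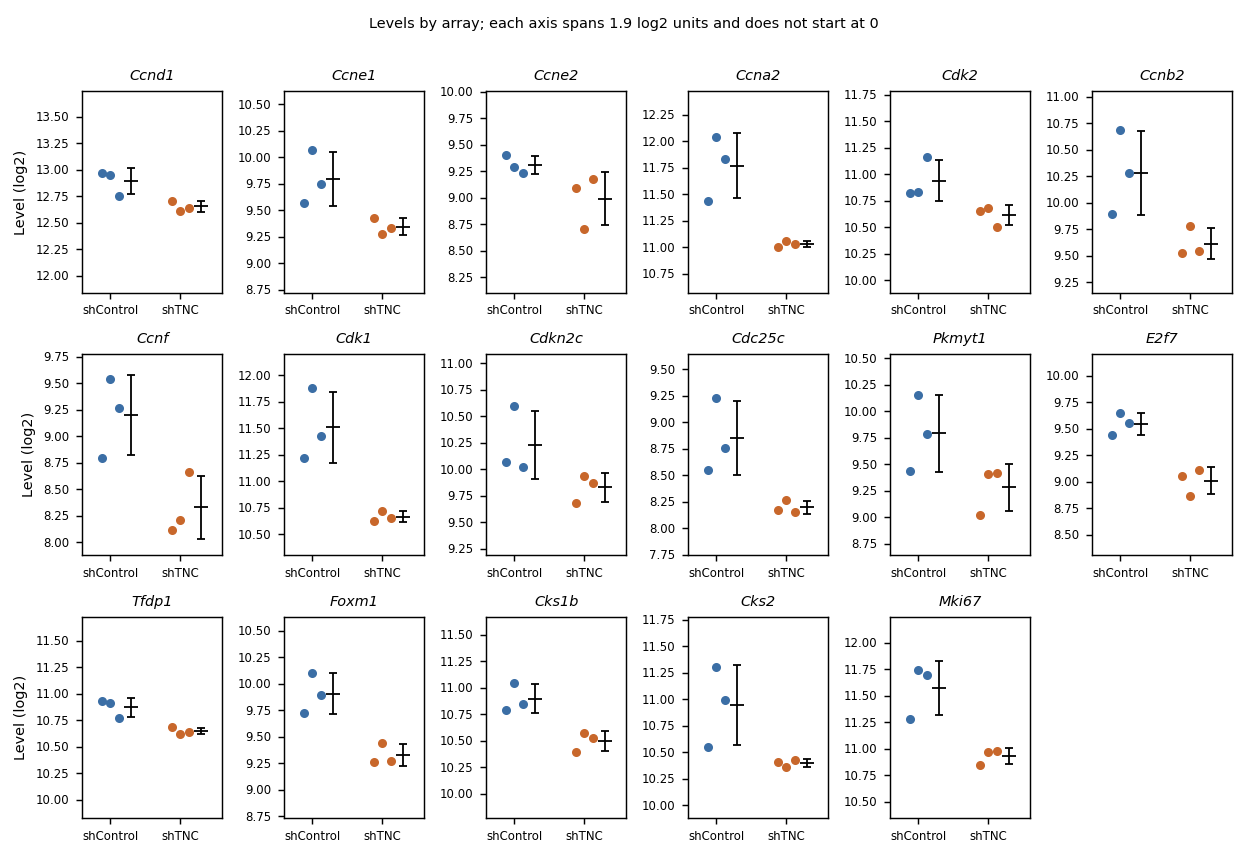
Level (log2, y axis) of the 17 genes lower at an unadjusted p under 0.05, with 1 point per array, in replicate order, and each group's mean ± SD over 3 arrays. The groups do not overlap in any panel, and for Cdk1, Ccna2 and Cks2 the shTNC points lie within a narrow band while the shControl points are spread.

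The start regions of these genes are shown because late cell cycle genes are known to share promoter elements: boxes bound by NF-Y, with the letters CCAAT, and the cell cycle homology region (CHR), with the letters TTTGAA, through which MuvB acts. S phase genes are known for E2F sites instead, searched here as TTTCCCGC or TTTCGCGC or TTTGCCGC or TTTGGCGC. Both strands were searched from 250 bases before to 50 bases after each annotated start in RefSeq (GRCm38.p6), and a CHR and an NF-Y box may share a base. Cdk1, Ccnb2, Ccnf, Cks1b and Mki67 are shown as genes with lower values that hold both elements, E2f7 as a gene with lower values that holds an E2F motif and NF-Y boxes, and Cdk7 and Cdkn1a as genes with differences near 0 on the probe set used that hold none of the motifs in this window. Each of these last 2 genes had another probe set without overlap between the groups, 1458987_at of Cdk7 at 0.27 ± 0.085 and 1421679_a_at of Cdkn1a at -0.40 ± 0.13. These 8 regions were picked by motifs and differences together, so what they share is no finding. Capitals mark every match to one of these motifs.
Cdk1, chr10:69352863-69353162, minus strand: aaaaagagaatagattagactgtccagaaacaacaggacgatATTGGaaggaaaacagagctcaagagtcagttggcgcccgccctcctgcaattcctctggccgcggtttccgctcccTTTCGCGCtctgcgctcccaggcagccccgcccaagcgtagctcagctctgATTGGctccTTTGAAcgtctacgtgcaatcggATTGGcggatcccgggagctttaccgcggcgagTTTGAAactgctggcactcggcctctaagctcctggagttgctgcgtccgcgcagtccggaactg
Ccnb2, chr9:70421505-70421804, minus strand: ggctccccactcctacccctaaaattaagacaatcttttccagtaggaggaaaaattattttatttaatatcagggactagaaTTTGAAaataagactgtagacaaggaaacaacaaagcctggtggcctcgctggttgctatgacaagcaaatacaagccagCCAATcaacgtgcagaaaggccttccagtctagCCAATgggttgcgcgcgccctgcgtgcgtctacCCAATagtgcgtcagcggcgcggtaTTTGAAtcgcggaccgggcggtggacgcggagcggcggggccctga
Ccnf, chr17:24251360-24251659, minus strand: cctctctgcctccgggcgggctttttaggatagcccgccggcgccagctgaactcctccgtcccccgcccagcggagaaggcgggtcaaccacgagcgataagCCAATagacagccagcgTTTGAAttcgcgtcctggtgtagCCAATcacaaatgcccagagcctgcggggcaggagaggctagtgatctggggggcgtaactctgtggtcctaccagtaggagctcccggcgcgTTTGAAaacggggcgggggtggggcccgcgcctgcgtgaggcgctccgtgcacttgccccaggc
Cks1b, chr3:89418242-89418541, minus strand: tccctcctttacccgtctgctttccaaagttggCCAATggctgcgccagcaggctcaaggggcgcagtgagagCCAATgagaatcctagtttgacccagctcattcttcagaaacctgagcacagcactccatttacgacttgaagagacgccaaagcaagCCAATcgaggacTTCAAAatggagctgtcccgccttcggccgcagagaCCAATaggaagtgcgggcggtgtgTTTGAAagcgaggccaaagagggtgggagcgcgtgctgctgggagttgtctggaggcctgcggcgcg
Mki67, chr7:135716330-135716629, minus strand: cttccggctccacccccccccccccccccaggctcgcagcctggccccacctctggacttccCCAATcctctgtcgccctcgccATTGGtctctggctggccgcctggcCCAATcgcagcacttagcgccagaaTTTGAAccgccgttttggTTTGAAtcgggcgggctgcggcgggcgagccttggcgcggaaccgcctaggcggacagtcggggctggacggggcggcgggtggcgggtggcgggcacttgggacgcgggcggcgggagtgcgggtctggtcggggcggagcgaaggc
E2f7, chr10:110745189-110745488, plus strand: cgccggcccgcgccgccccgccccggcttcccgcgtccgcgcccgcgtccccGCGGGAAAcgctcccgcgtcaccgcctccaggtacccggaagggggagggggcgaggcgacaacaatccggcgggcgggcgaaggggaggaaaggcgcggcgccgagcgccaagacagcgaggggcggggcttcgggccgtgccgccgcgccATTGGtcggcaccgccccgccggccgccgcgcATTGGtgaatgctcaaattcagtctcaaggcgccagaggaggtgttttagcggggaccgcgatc
Cdk7, chr13:100730893-100731192, minus strand: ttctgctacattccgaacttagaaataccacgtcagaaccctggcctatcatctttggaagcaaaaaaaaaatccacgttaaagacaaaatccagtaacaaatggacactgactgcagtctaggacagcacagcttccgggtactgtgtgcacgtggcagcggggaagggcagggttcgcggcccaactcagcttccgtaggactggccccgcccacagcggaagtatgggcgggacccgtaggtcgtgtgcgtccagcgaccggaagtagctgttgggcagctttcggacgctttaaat
Cdkn1a, chr17:29090729-29091028, plus strand: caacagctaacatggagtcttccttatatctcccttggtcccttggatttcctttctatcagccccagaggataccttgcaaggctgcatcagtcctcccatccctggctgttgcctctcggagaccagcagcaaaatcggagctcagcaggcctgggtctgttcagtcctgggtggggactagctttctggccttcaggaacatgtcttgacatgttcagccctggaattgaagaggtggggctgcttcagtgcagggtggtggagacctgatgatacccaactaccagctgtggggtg

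The Cdk1 start region held 3 NF-Y boxes, 2 CHR motifs and 1 E2F motif, and 1 of the CHR motifs began 15 bases before the start. Ccnb2 held 3 NF-Y boxes and 2 CHR motifs, and Ccnf 2 of each. Cks1b held 4 NF-Y boxes and 2 CHR motifs, and Mki67 3 and 2. RefSeq start regions were at hand for 30 of the 43 genes (37 starts), 29 of them with a value on the arrays. A gene was counted if any of its starts held the motifs, while shares of all start regions are per region, so these are unlike units. A CHR motif together with an NF-Y box was found in 6.95% of all 32851 start regions, in 5 of the 11 genes with lower values at an unadjusted p under 0.05 (the 5 printed above) and in 4 of the other 18 genes. An E2F motif was found in 2.26% of all start regions, in 4 of the 11 genes and in 4 of the 18, and an NF-Y box in 37.4%, in 9 of the 11 and in 9 of the 18. Genes without lower values at that level also held them: Cdc25a had an E2F motif and 2 NF-Y boxes, with a difference of 0.023 ± 0.12. Start 1 of E2f3 (-0.05 ± 0.14) held 1 E2F motif, 1 CHR motif and 3 NF-Y boxes. Start 1 of Skp2 (-0.13 ± 0.10) held 2 CHR motifs and 1 NF-Y box. Ccne1, with -0.45 ± 0.13, had none of the 3 motifs. These counts describe letters in a window and no test was made of them.

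**Figure D4:**
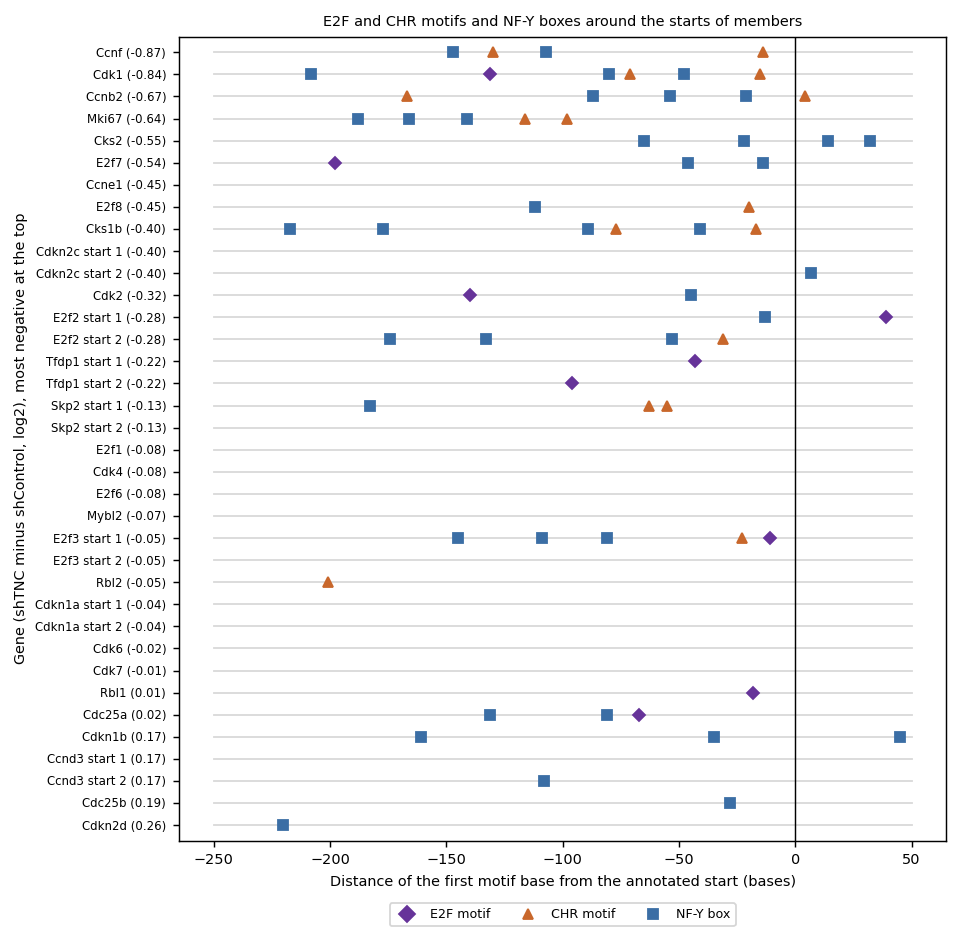
Distance of each motif's first base from the annotated start (x axis, bases) for 36 starts of 29 genes, ordered by the difference of shTNC minus shControl (log2, in brackets). Ccnf, Cdk1, Ccnb2 and Mki67, at the top, each hold both CHR motifs and NF-Y boxes. Further down, start 1 of E2f3 (-0.05) and start 1 of Skp2 (-0.13) hold both as well.

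The cyclins of S phase and their kinase had lower values in all 4 cases. Ccna2 (1417911_at), whose product works in S phase and early mitosis, had levels of 11.44, 12.04 and 11.83 in shControl and 11.01, 11.06 and 11.03 in shTNC. The shTNC arrays lay close together and the groups were well apart, with a difference of -0.74 ± 0.15 (SE, limma, log2) and an adjusted p of 0.191. Ccne1, the gene of cyclin E1, which starts S phase with CDK2 (1441910_x_at), had levels of 9.57, 10.07 and 9.75 in shControl and 9.43, 9.27 and 9.33 in shTNC. Its groups were separate, and the difference was -0.45 ± 0.13 with an adjusted p of 0.269. Ccne2 (1422535_at), its close relative, had levels of 9.40, 9.29 and 9.23 in shControl and 9.09, 8.71 and 9.17 in shTNC. Here the gap between the groups was slight, the difference was -0.31 ± 0.13 and the adjusted p 0.373. Cdk2 itself (1416873_a_at) had levels of 10.82, 10.83 and 11.16 in shControl and 10.65, 10.68 and 10.51 in shTNC, and all shTNC arrays lay under all shControl arrays, by a margin smaller than the spread within shControl. Its difference was -0.32 ± 0.12, with an adjusted p of 0.316.

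Of the 3 D-type cyclins, which link growth signals to the cycle, and their kinases Cdk4 and Cdk6, 1 gene was lower at an unadjusted p under 0.05. Ccnd1, the cyclin D1 gene (1448698_at), had levels of 12.97, 12.95 and 12.76 in shControl and 12.71, 12.61 and 12.64 in shTNC, a difference of -0.24 ± 0.093 (SE, limma, log2) and an adjusted p of 0.345. The groups were separate by a small margin, and of the other probe sets of the gene 1417419_at had a difference of -0.21 ± 0.12 with overlapping groups. On 1417420_at the groups were separate in the opposite direction, with every shTNC array above every shControl array and a difference of 0.11 ± 0.084. Ccnd2 (1416122_at) had overlapping levels of 12.79, 12.65 and 12.92 in shControl and 12.77, 12.71 and 12.68 in shTNC and a difference of -0.067 ± 0.10. Ccnd3 (1415907_at) was the 1 gene of the 42 with every shTNC array above every shControl array on the probe set used. Its levels were 11.72, 11.79 and 11.83 in shControl and 11.99, 11.91 and 11.96 in shTNC, and the difference of 0.17 ± 0.082 had an unadjusted p of 0.069 and an adjusted p of 0.42 in limma. On the dimmer probe sets of Ccnd3 the groups overlapped, with 0.12 ± 0.16 on 1438805_at and -0.16 ± 0.14 on 1444323_at. The partner kinases had differences near 0, with -0.079 ± 0.08 for Cdk4 (1422441_x_at), whose groups were separate by a narrow gap, and a 95% interval of -0.26 to 0.10. On the other probe sets of Cdk4 the groups overlapped and the sign was opposite, with 0.021 ± 0.086 on 1422439_a_at and 0.045 ± 0.083 on 1422440_at. For Cdk6 (1460291_at) the difference was -0.021 ± 0.095, with an interval of -0.24 to 0.20. The other probe sets of Cdk6 had the opposite sign and overlapping groups, with 0.10 ± 0.11 on 1435338_at and 0.18 ± 0.11 on 1455287_at.

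CDC25 phosphatases switch CDKs on, and the kinases WEE1 and PKMYT1 hold them off. Cdc25c, the phosphatase of mitotic entry (1456077_x_at), had levels of 8.55, 9.23 and 8.76 in shControl and 8.17, 8.27 and 8.16 in shTNC. Its groups did not overlap, and the difference was -0.65 ± 0.16 (SE, limma, log2) with an adjusted p of 0.234. Cdc25a, which acts earlier in the cycle, had levels of 10.27, 10.03 and 10.30 in shControl and 10.34, 10.04 and 10.29 in shTNC, and Cdc25b of 9.78, 10.28 and 10.03 in shControl and 10.07, 10.23 and 10.34 in shTNC. Both overlapped between the groups, with differences of 0.023 ± 0.12 and 0.19 ± 0.14. Pkmyt1 (1418481_at) had levels of 9.43, 10.15 and 9.79 in shControl and 9.02, 9.40 and 9.41 in shTNC, groups that almost touched, and a difference of -0.51 ± 0.19 with an adjusted p of 0.326. Its second probe set (1438601_at) had a difference of 0.0035 ± 0.13. Wee1 had overlapping levels of 10.47, 9.94 and 10.21 in shControl and 9.90, 9.96 and 10.21 in shTNC and a difference of -0.18 ± 0.15, which was -0.32 without shControl replicate 2. Cdc25c and Pkmyt1, an activator and an inhibitor of CDK1, thus both had lower values.

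Of the 5 CDK inhibitors 1 was lower and 0 were higher in shTNC at an unadjusted p under 0.05 in limma. Cdkn1a, the p21 gene and a target of p53 (1424638_at), had levels of 13.26, 13.06 and 13.00 in shControl and 12.93, 13.21 and 13.06 in shTNC and a difference of -0.042 ± 0.11 (SE, limma, log2), with a 95% interval of -0.30 to 0.21. A second, slightly dimmer probe set of the gene (1421679_a_at) had levels of 13.45, 13.04 and 13.03 in shControl and 12.76, 12.88 and 12.69 in shTNC, which did not overlap, and a difference of -0.40 ± 0.13. The 2 probe sets of Cdkn1a thus differed in what they showed. Cdkn1b, the p27 gene, whose protein SKP2 marks for destruction, had a difference of 0.17 ± 0.091, and Cdkn1c, the p57 gene, of 0.081 ± 0.10. Cdkn2d, an inhibitor of CDK4 and CDK6 (1416253_at), had levels of 10.37, 10.86 and 10.55 in shControl and 10.70, 11.06 and 10.80 in shTNC and the most positive difference of the 42 genes, 0.26 ± 0.15, with overlapping groups and an unadjusted p of 0.12 in limma. Without shControl replicate 2 it was 0.39, with an unadjusted p under 0.05. Cdkn2c, which inhibits the same kinases and is known to be switched on by E2F (1416868_at), went the other way, with levels of 10.06, 10.60 and 10.02 in shControl and 9.68, 9.94 and 9.87 in shTNC and a difference of -0.40 ± 0.16. Its groups were close to each other and shControl replicate 2 was high. Without that array the difference was -0.21.

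Among the 8 E2F factors and Tfdp1, E2f7 and Tfdp1 were lower at an unadjusted p under 0.05. E2f7, a repressor without a DP partner that limits E2F targets in late S phase (1437187_at), had levels of 9.44, 9.65 and 9.56 in shControl and 9.05, 8.87 and 9.11 in shTNC. The groups were well apart and each was tight, with a difference of -0.54 ± 0.10 (SE, limma, log2) and an adjusted p of 0.184. E2f8 (1444319_at), its close relative, had levels of 8.53, 9.39 and 8.74 in shControl and 8.90, 8.21 and 8.21 in shTNC, which overlapped, with shTNC replicate 1 above both shControl replicates 1 and 3, and a difference of -0.45 ± 0.25. Its dimmer probe set (1436186_at) had levels of 8.59, 9.11 and 8.84 in shControl and 8.41, 8.48 and 8.13 in shTNC, without overlap, and a difference of -0.51 ± 0.15. The activators E2f1, E2f2 and E2f3 had differences of -0.08 ± 0.15, -0.28 ± 0.19 and -0.05 ± 0.14, all with overlapping groups. Dimmer probe sets of E2f1 (1431875_a_at) and E2f2 (1455790_at) had differences of -0.42 ± 0.15 and -0.52 ± 0.16, both at an unadjusted p under 0.05, and a further one of E2f1 (1447840_x_at) had -0.12 ± 0.13. Single arrays moved these values: without shControl replicate 2 the difference was -0.057 for E2f2 and -0.20 for E2f8, and without shTNC replicate 1 it was 0.089 for E2f1. E2f4, E2f5 and E2f6, which mostly repress, had differences of -0.085 ± 0.13, 0.21 ± 0.12 and -0.079 ± 0.13, none at an unadjusted p under 0.05 in limma. Tfdp1, the DP partner of the classical E2Fs (1423241_a_at), had levels of 10.93, 10.91 and 10.77 in shControl and 10.69, 10.62 and 10.64 in shTNC. Its groups did not overlap, and the difference was small, -0.22 ± 0.086, with an adjusted p of 0.346.

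The RB family, which holds the E2Fs in check, showed no difference past an unadjusted p of 0.05 on the probe sets used. Rb1 had levels of 11.52, 11.34 and 11.51 in shControl and 11.45, 11.57 and 11.68 in shTNC, with a difference of 0.11 ± 0.10 (SE, limma, log2) and a 95% interval of -0.12 to 0.33. For Rbl1, the p107 gene, the difference was 0.014 ± 0.091, with an interval of -0.20 to 0.22. Rbl2, the p130 gene, had levels of 9.48, 9.82 and 9.52 in shControl and 9.56, 9.57 and 9.55 in shTNC on the brighter probe set (1425981_a_at), a difference of -0.047 ± 0.11. On the other probe set (1418146_a_at) the levels of 9.11, 9.40 and 9.10 in shControl and 8.80, 8.87 and 8.63 in shTNC did not overlap, and the difference was -0.43 ± 0.12.

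Of the factors that switch on mitotic genes, Foxm1 had lower values. Foxm1 (1448834_at) had levels of 9.72, 10.10 and 9.89 in shControl and 9.26, 9.44 and 9.27 in shTNC, with all shTNC arrays under all shControl arrays. The difference was -0.58 ± 0.12 (SE, limma, log2), with an adjusted p of 0.196, and of its other probe sets above background 1417748_x_at gave -0.52 ± 0.15, while 1448833_at gave -0.18 ± 0.11 with overlapping groups. The mean of all probe sets of Foxm1, including 1437138_at near background, gave -0.32. Mybl2, the B-MYB gene (1454946_at), had levels of 7.97, 7.98 and 7.88 in shControl and 7.82, 7.98 and 7.84 in shTNC, not far above background, and a difference of -0.065 ± 0.088. Its other probe set (1417656_at) lay near background, with a difference of -0.23 ± 0.083. Lin9, a core subunit of MuvB (1443984_at), had levels of 9.67, 9.75 and 9.88 in shControl and 9.25, 9.50 and 9.87 in shTNC. The shTNC arrays of Lin9 spanned the whole range, with shTNC replicate 3 level with the shControl arrays, and the difference was -0.23 ± 0.16.

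SKP2 is the receptor of the ubiquitin ligase that removes p27, and the small CKS proteins are its helpers and bind CDKs. Skp2 (1460247_a_at) had overlapping levels of 9.002, 9.021 and 9.273 in shControl and 9.028, 8.911 and 8.977 in shTNC and a difference of -0.13 ± 0.10 (SE, limma, log2). Cks1b (1416698_a_at) had levels of 10.79, 11.05 and 10.85 in shControl and 10.39, 10.57 and 10.52 in shTNC, which did not overlap, and a difference of -0.40 ± 0.10 with an adjusted p of 0.237. Cks2 (1417457_at), its close paralogue, had levels of 10.54, 11.30 and 10.99 in shControl and 10.41, 10.36 and 10.43 in shTNC. The shTNC arrays of Cks2 lay close together, while shControl replicate 1 lay just above them, and the difference of -0.55 ± 0.17 had an adjusted p of 0.283. Second probe sets of Cks1b (1448441_at) and Cks2 (1417458_s_at) gave -0.44 ± 0.15 and -0.52 ± 0.15. Mki67 (1426817_at), the transcript of a chromosome coat protein made only in cycling cells, had levels of 11.28, 11.75 and 11.70 in shControl and 10.85, 10.97 and 10.98 in shTNC. Its groups were well apart, with a difference of -0.64 ± 0.13 and an adjusted p of 0.199.

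How far a gene's call rested on the choice of probe set could be read from the 31 genes with several. Beside the probe set used there were 44 others above background, in 28 genes, and 26 of them had the same sign as the one used. At an unadjusted p under 0.05 in limma, 11 of the 44 had lower and 1 had higher values, against 6.33% and 9.22% of the 11841 such probe sets of all genes. Of the 8 genes with lower values that had another probe set above background, 6 had a second one lower at that level: Ccne1, Ccna2, Cdc25c, Foxm1, Cks1b and Cks2. Ccnd1 and Pkmyt1 were the other 2, and none of theirs was. A further 5 genes, Cdkn1a, E2f1, E2f2, E2f8 and Rbl2, were lower only on a probe set other than the brightest, so that 22 of the 42 genes had some probe set above background lower at that level, against 11.4% of the 13444 genes above background by the same rule. With the mean of a gene's probe sets in place of the brightest, the difference was -0.11 for Ccnd1, -0.16 for Cdk2 and -0.25 for Pkmyt1, none at an unadjusted p under 0.05, and -0.48 for Ccnf, still at that level. For Cdk2 and Ccnf the other probe set in that mean (1447617_at and 1443807_x_at) lay near background. The probe set higher at that level belonged to Cdk7 (1458987_at), with a difference of 0.27 ± 0.085 (SE, log2).

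**Figure D5:**
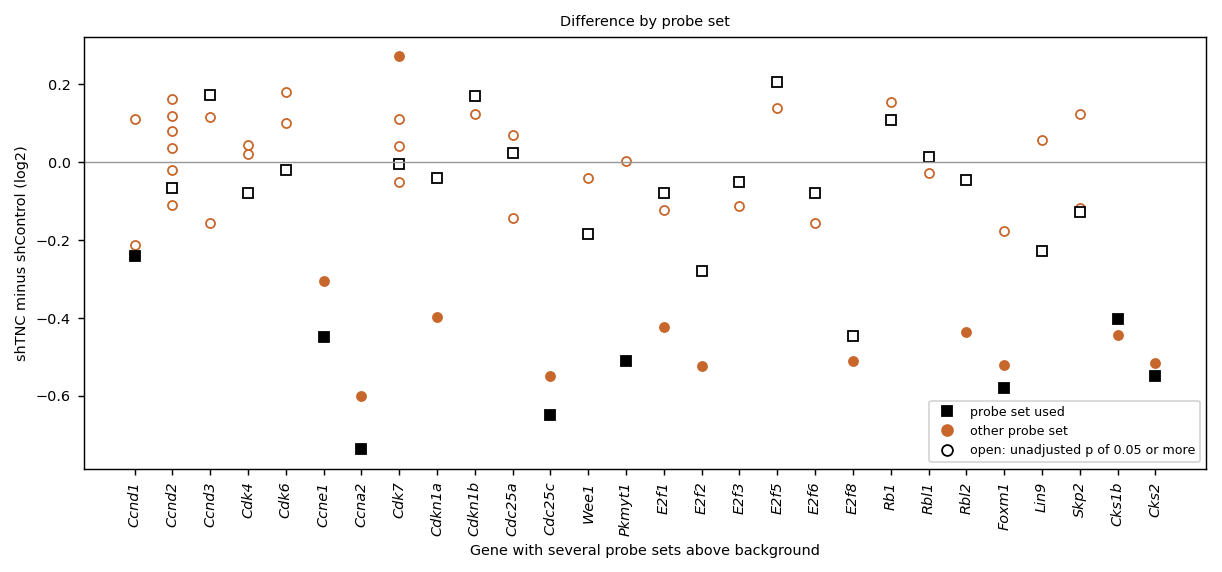
Difference between the groups (shTNC minus shControl, log2, y axis) on each probe set above background for the 28 genes with several, with the probe set used as a square and others as circles. Filled symbols have an unadjusted p under 0.05, and Cdkn1a, E2f1, E2f2, E2f8 and Rbl2 have an open square above a filled circle.

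The rest of the network was read from lists of genes that do related work. Of 28 other cyclins and CDKs, most of which act in transcription or outside the cycle, 0 were lower and 2 were higher in shTNC at an unadjusted p under 0.05 in limma, with 0 past the adjusted threshold and a median of -0.06 (log2). The 2 were Ccng2, an unusual cyclin made in cells that leave the cycle, at 0.51 ± 0.17 (SE, n = 3 per group), and Cdk19, a Mediator kinase, at 0.27 ± 0.11. Over all genes 7.12% were lower and 4.54% higher at that level. Of 21 further regulators of the network 4 were lower and 2 higher, with a median of 0.0067. Myc, which drives entry to the cycle, was at -0.67 ± 0.13, Cdkn3, a phosphatase of CDKs, at -0.61 ± 0.15, and Cdkn2b, an inhibitor of CDK4 and CDK6, at 0.48 ± 0.12, with every shTNC array above every shControl array. Of 13 p53 targets 3 were lower and 1 higher, with a median of 0.026. With so few genes called, nothing is read from the counts of these 3 lists.

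Targets of the 2 transcription programmes were also compared. Of 26 E2F targets of DNA replication 11 were lower and 0 were higher in shTNC at an unadjusted p under 0.05 in limma, with a median of -0.22 (log2). Rrm2, a subunit of ribonucleotide reductase, was at -0.79 ± 0.11 (SE, n = 3 per group). Of 25 mitotic targets of B-MYB with MuvB and of FOXM1 20 were lower and 0 higher, with a median of -0.61. In 14 of these 25 genes every shTNC array lay under every shControl array. Most of the 25 had their highest value on shControl replicate 2. How far the counts of either target list rest on that array was not tested. Kif11, a spindle motor, was at -0.61 ± 0.088, and Cdca8, a subunit of the chromosomal passenger complex, at -0.84 ± 0.16. None of these genes passed the adjusted threshold, and 7.12% of all genes were lower at the unadjusted level.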

How the data were processed

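Total RNA of sorted lung ECs (2 ng per sample, per the labels) was amplified, biotin-labelled and hybridized to Affymetrix GeneChip Mouse Genome 430 2.0 arrays. Per the methods of the study, the authors normalized raw files by RMA in Chipster 3.8.0. The deposited values are log2 expression per probe set, with no missing value. The sorted values of any pair of arrays differed by at most 0.07. RMA shrinks differences of dim probe sets, and the number of arrays limits precision.

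All 45101 probe sets entered limma 3.58.1 (R 4.3.3; lmFit, eBayes, two-sided, no covariate, 4 residual degrees of freedom), with Benjamini-Hochberg adjustment and a threshold of 0.05. Symbols came from the platform annotation: 34958 probe sets had 1 symbol, 932 several and 9211 none. Near background means a mean under 7.475, the level that 95% of 44 probe sets for olfactory receptors did not reach. Of 212 entries in the other lists 199 were matched. Lists are described by counts and medians, with no list test. The steps were tested on simulated data. Values on every array are given for genes above background with an unadjusted p under 0.05 and for at least 1 gene per role. At most 3 genes are named per other list, from those with the smallest p. Endothelial, macrophage, lymphocyte and epithelial markers beyond that were chosen after their values were seen. The genes and lists were chosen with earlier results of these data known. Samples are labelled as biological replicates. Start regions came from RefSeq and were searched with pandas 2.3.3.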

Additional observations from a re-analysis of the deposited data

How the results depend on the processing

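The alternatives were quantile normalization, centring on array medians, array weights, robust eBayes with an intensity trend, a fit without probe sets near background, the mean of a gene's probe sets, probe sets without an s or x suffix, 1 probe set per gene, the replicate number as a block, and leaving out each array in turn. Of the 17 genes lower at an unadjusted p under 0.05 in limma, all kept their sign in each of these 15 settings and 11 kept that level in each: Ccne1, Ccna2, Ccnb2, Ccnf, Cdk1, Cdc25c, E2f7, Foxm1, Cks1b, Cks2 and Mki67. No gene of the 42 had an adjusted p under 0.05 in any setting, the smallest being 0.0585 for Cdk1 with the trend and robust eBayes. Over all probe sets or genes, 9 passed with that option, 1 with the mean of a gene's probe sets, 1 with 1 probe set per gene, and 0 to 4 with an array left out. Members higher at an unadjusted p under 0.05 numbered 1 with the trend and robust eBayes (Ccnd3), 1 with array weights (Cdkn2d) and 1 with the replicate block (Cdkn2d), and 0 to 2 with an array left out. Genes with every shTNC array above every shControl array numbered 2 with the mean of a gene's probe sets and 1 to 4 with an array left out. Leaving out an array gave 13 to 15 genes lower at the unadjusted level, against 4.56% to 9.55% of all genes, 18 to 21 with every shTNC array under every shControl array, against 16.7% to 22.5% of all genes, and medians from -0.21 to -0.13. With the replicate block 16 genes were lower. Same-numbered samples of the groups correlated at -0.138, 0.0582 and 0.183 in their deviations from the group means, so the numbers were not taken to pair the samples.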
